A study of Homo sapiens with 18 samples.

Results

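Huh1 and Huh7 are human hepatocellular carcinoma (HCC) lines, and the question here was where their transcriptional responses to disulfiram (DSF) differed. The change after DSF in Huh7 was set against the change after DSF in Huh1, which used 12 of the 18 arrays of the series, with 3 arrays in each of 4 groups: Huh1 control, Huh1 DSF, Huh7 control and Huh7 DSF. All cells were sorted for EpCAM, a surface protein of liver progenitor and carcinoma cells, and the DSF groups had received 0.1 µM for 48 hours. In the methods copper chloride is named beside DSF, and the treatment of the control cells is not described, so a part played by copper cannot be told apart from that of DSF. The labels name the sort after the treatment, while the study's text speaks of EpCAM+ cells being treated, so whether cells that lost EpCAM were left out is not settled. In bulk samples such as these fewer cells of a type and less RNA per cell cannot be told apart. Levels are log2 spot signals relative to each array's 75th percentile, so that 0 is the signal of a probe at that percentile, and each change is the log2 level with DSF minus the log2 level in control.

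DSF, a drug used against alcohol dependence, inhibits aldehyde dehydrogenase, and its metabolite forms a complex with copper that is known to disturb the disposal of proteins. Cells answer unfolded cytosolic proteins through HSF1, which drives chaperone genes, and answer stress of the endoplasmic reticulum or lack of amino acids through ATF4. They answer oxidants and electrophiles through NRF2, which drives glutathione and detoxification genes, and low oxygen through HIF1, which drives glycolysis genes. Huh1 and Huh7 are each a single line from a single tumor, so a difference between them is a difference between 2 lines and not between classes of tumors.

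All 12 hepatocyte and HCC markers were well above background, by the scanner software's flag, on each of the 12 arrays. EPCAM fell in both lines, by 0.66 ± 0.05 in Huh1 and by 0.50 ± 0.05 in Huh7 (SE, n = 3 arrays a group), and these changes were not called different (limma adjusted p = 0.0892), though they were with median scaling (limma adjusted p = 0.0359). Of the markers of other cell types, 4 of 8 fibroblast, 5 of 9 blood and 3 of 5 endothelial genes were bright enough to be tested, and COL1A2, COL3A1, PDGFRB, THY1, HBB and KDR were not. Per array 59.86% to 71.08% of 42405 probes were well above background, with the highest shares (70.63% and 71.08%) on Huh7 DSF arrays 2 and 3, which lay alone on a slide that was scanned on another day. The first Huh1 control array stood apart from the other two (median absolute difference 0.161 and 0.147 on the log2 scale, against 0.088 between the others), and the first Huh7 DSF array stood apart from the pair on the separate slide (0.182 and 0.173 against 0.067). The arrays of a group are described as triplicates from independent experiments. The separate slide held no other group. With slide as a block in the fit, the level of Huh7 DSF thus came from its first array alone. The same holds where that slide is left out. Values and calls given below for these settings rest on that array for the change in Huh7.

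DSF changed many genes in both lines, and the change differed between the lines for a large share of them. Of 15615 genes tested, 4498 (28.8% of genes tested) rose and 4632 (29.7%) fell in Huh1, and 4974 (31.9%) rose and 4229 (27.1%) fell in Huh7, at a limma adjusted p under 0.05. The difference between the lines was itself called for 8294 genes, with the change in Huh7 above that in Huh1 for 4325 (27.7%) and below it for 3969 (25.4%). It was at least 2-fold for 2366 of them. Across genes the changes of the lines had a Pearson r of 0.393 and a Spearman rho of 0.285, which is a description over genes that share arrays and are not independent.

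Genes with a called difference fell into several classes. In 1821 genes (11.7%) the change was called in each line with opposite sign, here termed opposed. In 207 genes (1.33%) the change was limited to Huh1 and in 185 (1.18%) to Huh7, where limited means at least 2-fold and called in a line while the 95% interval of the change in the other lay within 1.5-fold either way. A further 1878 genes changed in the same direction by different amounts, 2043 were called in Huh1 alone and 1987 in Huh7 alone without meeting the interval, and 173 were called in neither line. DSF and control arrays did not overlap and split in opposite directions in the lines for 2606 genes (16.7%).

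**Figure D1:**
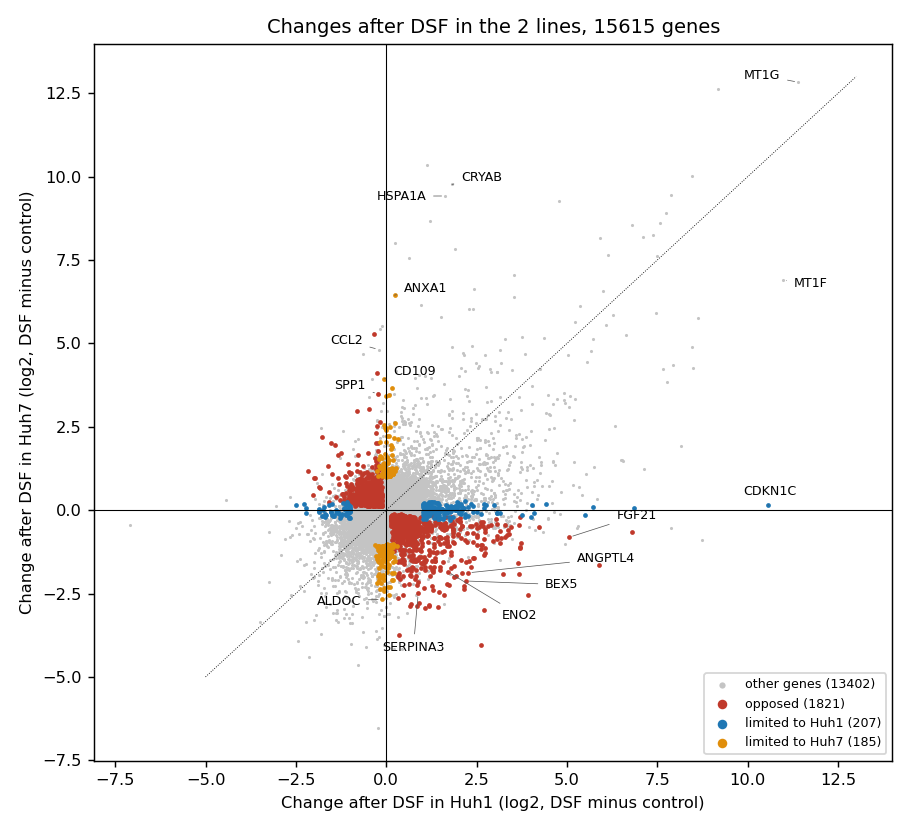
Change after DSF in Huh1 (x axis, log2) against the change in Huh7 (y axis, log2) for 15615 genes, each point a gene, with opposed genes in red, genes limited to Huh1 in blue and genes limited to Huh7 in orange. The dotted line marks equal change. CDKN1C lies along the x axis, ANXA1 and CD109 along the y axis, and ANGPTL4, BEX5 and ENO2 in the lower right quadrant, where 777 opposed genes rose in Huh1 and fell in Huh7.

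Opposed changes were mostly small. The median of the smaller of the paired changes was 0.31 on the log2 scale, and 309 of the 1821 genes changed at least 1.5-fold in each line. Of these 309, 242 rose in Huh1 and fell in Huh7, while 67 fell in Huh1 and rose in Huh7. The balance was the other way over all 1821, of which 777 rose in Huh1 and 1044 rose in Huh7. Of the 309, 171 had a probe well above background on all 12 arrays, so the others were near background on at least 1 array. An opposed call did not require signal above background in both lines. SLC2A2, for example, was well above background on no Huh7 control array and on 1 Huh7 DSF array. With slide as a block in the fit all 309 kept their signs, as they did without the separately scanned slide. Not all of the 309 were still called opposed in these settings. In both settings the change in Huh7 rests on the first Huh7 DSF array, so these are nearly the same check. Another tested probe was present for 58 of the 309. Of these 68 other probes, 52 had the same pair of signs and 35 were themselves called opposed.

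ANGPTL4, a secreted inhibitor of lipoprotein lipase, had one of the largest opposed changes. Its level was -1.12, -0.77 and -0.90 on the Huh1 control arrays and 1.30, 1.30 and 1.41 with DSF, while in Huh7 it was 0.31, 0.32 and 0.30 in control and -1.54, -1.58 and -1.58 with DSF. Every Huh1 DSF array was above its controls and every Huh7 DSF array below, and the order of the lines was turned. ANGPTL4 thus rose by 2.27 ± 0.08 in Huh1 and fell by 1.88 ± 0.08 in Huh7 (SE, limma adjusted p of the difference 1.16e-08).

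BEX5, a small protein of the brain-expressed X-linked family, was at -3.98, -3.16 and -3.32 in Huh1 control and at -1.35, -1.31 and -1.21 with DSF. In Huh7 it went from 2.16, 2.11 and 2.17 to 0.08, 0.01 and -0.03. The control arrays of the lines lay far apart and the DSF arrays lay nearer to each other. Its changes were 2.19 ± 0.17 in Huh1 and -2.12 ± 0.17 in Huh7, and the first Huh1 control array was the lowest of its group. ENO2, the neuronal isoform of the glycolytic enzyme enolase, had control levels of -4.55, -4.83 and -4.99 in Huh1 and of -1.38, -1.38 and -1.45 in Huh7. With DSF the Huh1 arrays were at -3.15, -3.14 and -2.97 and the Huh7 arrays at -3.16, -3.34 and -3.26, so the lines had met at nearly the same level from opposite sides. The other genes of this kind named by rank were EHD2, a membrane-bending ATPase of caveolae (1.67 and -2.21 in Huh1 and Huh7), DEFB1, an antimicrobial beta-defensin (1.57 and -1.55), and C1orf116 (1.75 and -2.26). The first Huh1 control array stood apart for the last 2, and without it their differences of -3.12 and -4.0 were -2.85 and -4.38.

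Among genes that fell in Huh1 and rose in Huh7, CPS1 encodes the mitochondrial enzyme that opens the urea cycle. Its level went from 5.35, 5.01 and 5.11 to 3.65, 3.63 and 3.69 in Huh1, and from -3.40, -3.30 and -3.41 to -2.20, -2.30 and -2.37 in Huh7. The changes of -1.50 ± 0.08 and 1.08 ± 0.08 left the lines still far apart. SLC38A4, an amino acid transporter of the liver, went from -0.91, -1.07 and -1.17 to -2.59, -2.68 and -2.75 in Huh1 and from -5.50, -5.36 and -5.11 to -3.85, -4.13 and -3.97 in Huh7. Its relative SLC38A11 had changes of -1.43 and 1.96. RFX6, a transcription factor of gut and pancreatic endocrine cells, had changes of -1.07 and 1.38, the secreted protein ISM1 -1.25 and 1.71, and the ubiquitin ligase HECW2 -1.0 and 1.09. For all 12 genes named in these paragraphs the difference was called with slide as a block too.

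**Figure D2:**
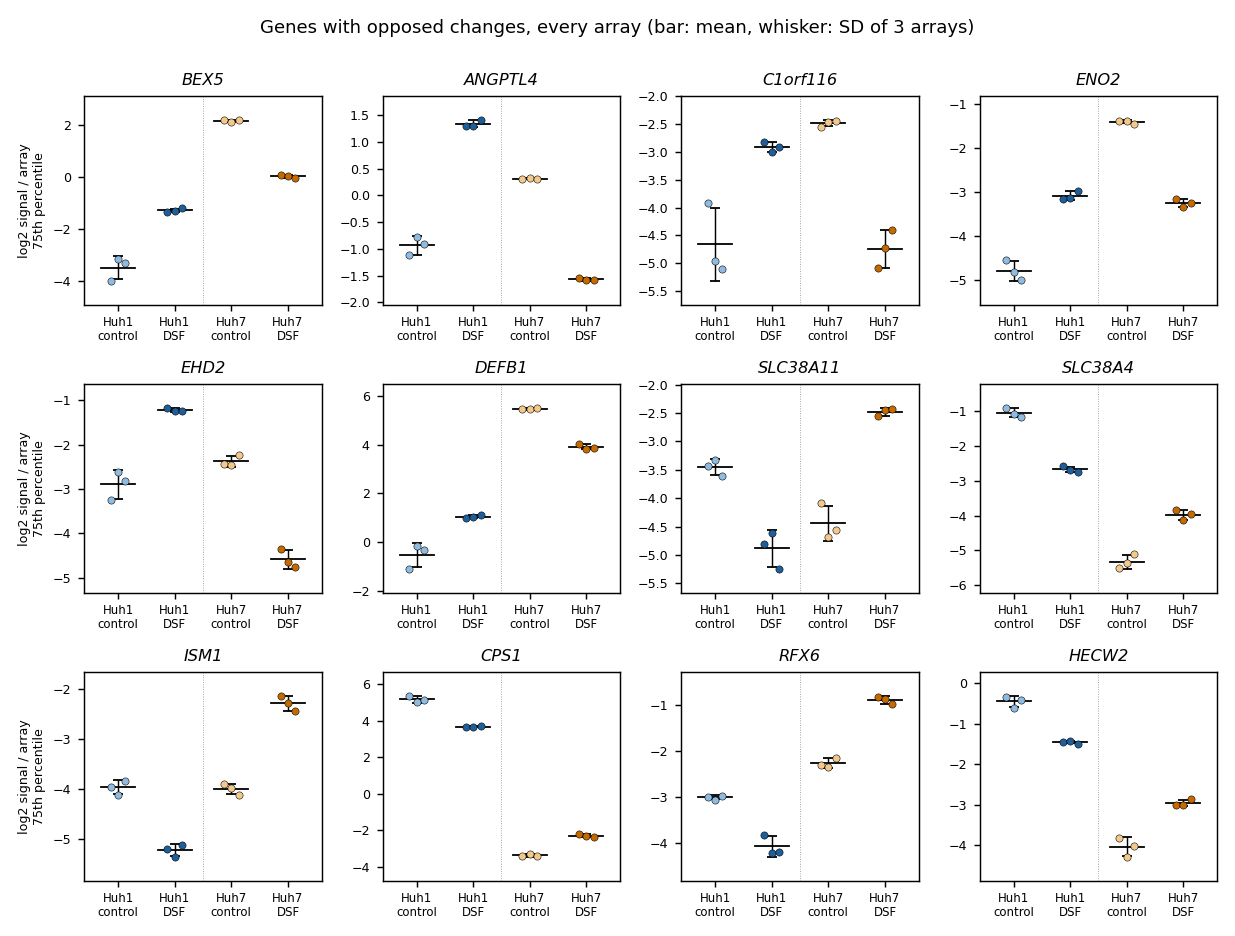
Log2 level relative to the array's 75th percentile (y axis) on every array for the 12 opposed genes named by rank, with 3 points per group, a bar at the group mean and error bars of 1 SD. In the 6 genes that rose in Huh1, such as ANGPTL4 and ENO2, every Huh1 DSF array is above its controls and every Huh7 DSF array below, and in the other 6, such as CPS1 and SLC38A4, the order is turned.

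Changes limited to Huh1 were mostly rises, 153 against 54 falls. CDKN1C, which encodes the cell cycle inhibitor p57KIP2, had no Huh1 control array well above background and reached 4.83, 4.70 and 4.67 with DSF, at least 1520-fold higher (limma adjusted p of the difference 8.6e-11). In Huh7 it was at -3.66, -3.52 and -3.68 in control and at -3.46, -3.65 and -3.32 with DSF, and these arrays overlapped. Huh1 control thus lay below Huh7 and Huh1 DSF far above it.

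The sodium-calcium exchanger SLC8A2 and the locus LOC728392, neither of them well above background in Huh1 control, were at least 26.3-fold and at least 21.6-fold higher in Huh1 with DSF. The change of SLC8A2 in Huh7 was 0.11 and not called (limma adjusted p = 0.592), but with slide as a block it was a rise of 0.53 (limma adjusted p = 0.00578).

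The falls limited to Huh1 included IHH, the hedgehog ligand of the gut and growth plate. It went from 2.88, 2.84 and 2.80 to 0.63, 0.61 and 0.62 in Huh1 and stayed between 4.15 and 4.40 on the 6 Huh7 arrays. CDO1, the enzyme that begins cysteine breakdown, fell by 2.51 ± 0.17 in Huh1 against a change of 0.15 in Huh7, and its difference of 2.66 was 2.89 without the first Huh1 control array, which stood apart. The potassium channel subunit KCNJ8 and the small GTPase RASL11A fell by 2.27 and by 2.21 in Huh1, with changes of 0.18 and 0.06 in Huh7.

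Changes limited to Huh7 were 81 rises and 104 falls. ANXA1, a calcium-dependent phospholipid-binding protein, was high on all 6 Huh1 arrays (5.26 to 5.66), was at -3.60, -3.75 and -3.91 in Huh7 control and rose to 2.89, 2.58 and 2.59 with DSF. Its rise in Huh7 was 6.45 ± 0.12, and the 95% interval in Huh1 ran from -0.03 to 0.49. CD109, a membrane protein that binds TGF-beta receptors, was between 3.33 and 3.50 in Huh1. In Huh7 it was not well above background in control and was at -2.37, -2.36 and -2.44 with DSF, at least 15.3-fold higher. Both genes remained below Huh1 in Huh7 after DSF.

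The transcribed pseudogene ZNF300P1 was likewise not well above background in Huh7 control and was at least 4.03-fold higher there with DSF. HKDC1, a hexokinase domain protein, was named through a probe that was dim in Huh7 control and at least 11.9-fold higher with DSF. Its second probe was well above background on all 12 arrays, rose by 3.32 in Huh7 and changed by 0.63 in Huh1, which is more than 1.5-fold, so the gene was not limited to Huh7 by that probe. Of the falls, ALDOC, the brain isoform of aldolase, went from 2.17, 2.16 and 2.18 to -0.36, -0.61 and -0.53 in Huh7 and lay between 0.46 and 0.71 on the 6 Huh1 arrays, where the DSF arrays were below the controls and the fall of 0.17 was called with slide as a block (limma adjusted p = 0.0171). HPN, the hepatocyte surface protease hepsin, went from 1.36, 1.33 and 1.28 to -1.12, -1.05 and -0.97 in Huh7, where it met the Huh1 levels of -1.57 to -0.92. TRIM7, a ubiquitin ligase, fell by 2.44 in Huh7 by its brighter probe. Its other probe, well above background in Huh1 but not in Huh7, changed by -0.59 in Huh1 and showed no called difference (limma adjusted p = 0.538). By that probe the gene was not limited to Huh7. GIMAP2, a GTPase of the immunity-associated family, was at least 2.76-fold lower in Huh7 with DSF and not well above background on any of those arrays. Of the 15 genes named as limited to a line, 8 kept their class with slide as a block. SLC8A2 and ALDOC were then called in both lines, and CDO1, KCNJ8, HKDC1, GIMAP2 and HPN were called in the same line as before without meeting the interval in the other.

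**Figure D3:**
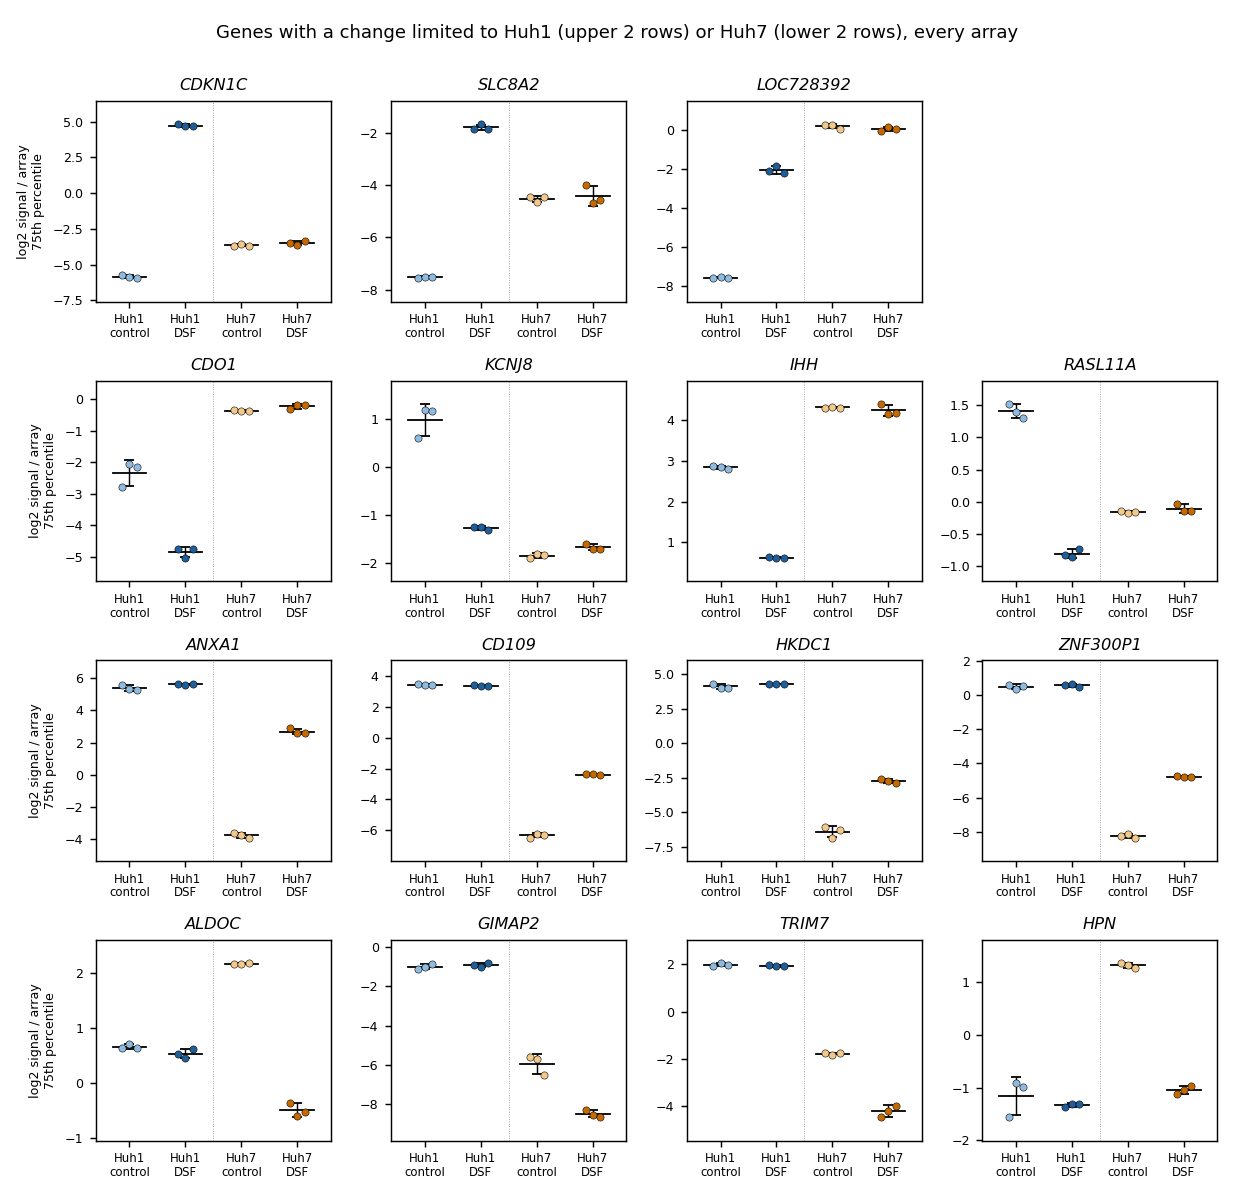
Log2 level relative to the array's 75th percentile (y axis) on every array for 15 genes named as limited to a line, with 3 points per group, a bar at the group mean and error bars of 1 SD. In the upper 2 rows (such as CDKN1C and IHH) the large step is between the Huh1 groups, and in the lower 2 rows (such as ANXA1 and ALDOC) it is between the Huh7 groups. The arrays of CDO1, KCNJ8 and ALDOC do not overlap in the other line either, with smaller steps.

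The control levels of these genes differed between the lines in a pattern that followed the direction of change. Over all genes, Huh7 control was below Huh1 control for 50.4%. It was so for 19 of the 242 opposed genes (7.85%) that rose in Huh1 by 1.5-fold or more, and for 56 of the 67 (83.6%) that rose in Huh7. It was so for 22 of the 153 genes (14.4%) that rose in Huh1 only by the limited definition, and for 73 of the 81 (90.1%) that rose in Huh7 only. Rises thus lay mostly in the line with the lower control level. The median absolute distance between the lines was 2.69 in control and 1.38 with DSF for the 242 genes, and 2.02 and 1.53 for the 81, against 0.72 and 0.68 over all genes. The class of a gene and its control level use the same control arrays, so these counts are a description and nothing is read from them about cause. Genes that marked a line stayed so in part. Of 19 genes bright in Huh1 control and not well above background on any Huh7 control array, 12 were not well above background on any Huh7 DSF array either, among them the nuclear receptor NR0B1. Of 11 with the lines exchanged, 6 stayed so, among them the intestinal transcription factor CDX2.

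Gene lists were written for 24 pathways or families, and members named below beyond the leading 3 of each list were chosen after their values were seen. Over all genes the change was called higher in Huh7 for 27.7% and lower for 25.4%, and 11.7% were opposed, which is the background for the counts below. For counts in a single line, 28.8% of all genes rose and 29.7% fell in Huh1, and 31.9% rose and 27.1% fell in Huh7. The change was limited to Huh1 for 1.33% and to Huh7 for 1.18%. The most one-sided counts of called differences were those of cytosolic heat shock, the proteasome list and NRF2 targets, higher in Huh7, and of ATF4 targets and sterol synthesis, lower in Huh7. List medians are read beside a median difference over all genes of 0.03, which was -0.28 with scaling on spike-in probes and 0.19 with scaling on array medians.

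**Figure D4:**
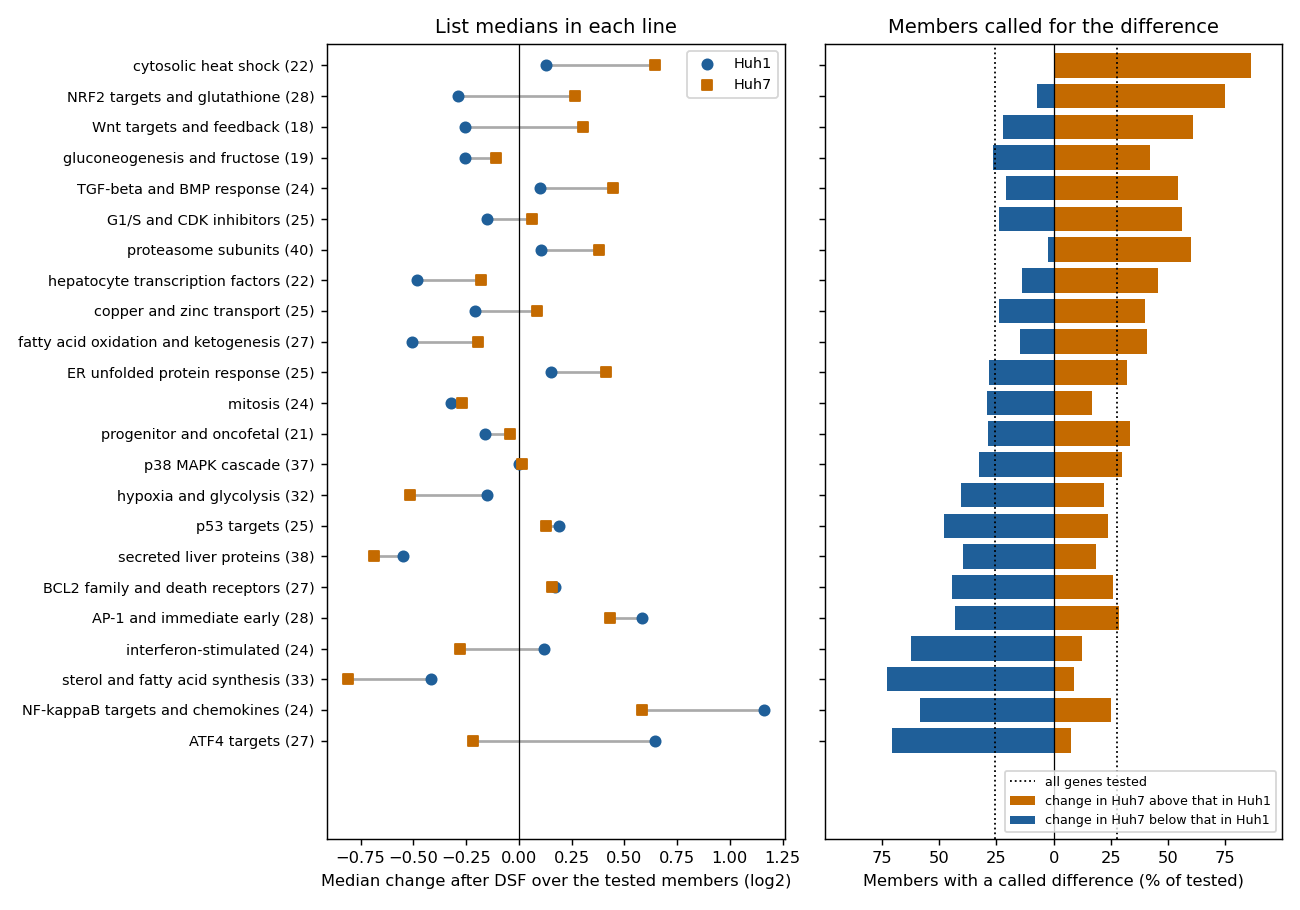
Left, the median change after DSF (log2) over the tested members of each list, with the number of members in brackets, in Huh1 (circles) and Huh7 (squares). Right, the share of members (%) called for the difference between the lines in each direction, with dotted lines at the shares over all genes, 27.7% and 25.4%. Heat shock reaches 86.4% above and 0 below, and ATF4 targets lie at the other end with 19 of 27 below. The sign of the median difference turned with a change of scaling for proteasome subunits, hepatocyte transcription factors, copper and zinc transport, fatty acid oxidation, the ER response, mitosis, progenitor genes, hypoxia and the p38 cascade, and the metallothioneins, whose medians exceed the axis, are left out.

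Most cytosolic chaperone genes rose more in Huh7, with by far the largest differences in CRYAB and HSPA1A. Of 22 members, 21 rose and 0 fell in Huh7, 11 rose and 5 fell in Huh1, and the change was called higher in Huh7 for 19 and lower for 0, with medians of 0.13 in Huh1 (below 0 with median scaling) and 0.65 in Huh7. CRYAB, the small heat shock protein alphaB-crystallin, was at 0.72, 0.86 and 0.76 in Huh1 control and 2.64, 2.51 and 2.62 with DSF. In Huh7 it went from -5.34, -5.35 and -5.31 to 4.47, 4.41 and 4.42, so Huh7 passed Huh1 from far below. The changes were 1.82 ± 0.05 and 9.76 ± 0.05 (limma adjusted p of the difference 1.35e-11).

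HSPA1A, the inducible chaperone HSP70, was at 4.74, 5.01 and 4.96 in Huh1 control and 6.57, 6.51 and 6.53 with DSF. It was not well above background on any Huh7 control array and was at 1.29, 1.36 and 1.32 with DSF, at least 276-fold higher, yet below Huh1 throughout. The HSPA1B probe rose by 1.00 in Huh1 and by 2.14 in Huh7 from measured levels in both controls. HSPA1A and HSPA1B are near-identical copies whose probes may read each other's transcripts, so neither value is certain to be of a single gene. HSPB8, a small chaperone that works with BAG3 in autophagy, went from -1.06, -0.22 and -0.35 to 0.68, 0.67 and 0.77 in Huh1 and from -3.97, -3.96 and -3.87 to between 0.0 and 0.05 in Huh7, rises of 1.25 ± 0.17 and 3.96 ± 0.17. The lines thus lay near each other after DSF and far apart before it. HSPA6, a stress-only HSP70, rose strongly in both lines, by 7.09 and by 8.19.

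In several other members a rise in Huh7 stood beside a change in Huh1 that was small or a fall. HSPA8, the constitutive HSP70, rose by 0.93 ± 0.05 in Huh7 beside a change of 0.04 ± 0.05 in Huh1 that was not called (limma adjusted p = 0.525). CHORDC1, an HSP90 cochaperone, changed by 0.10 and 1.01, STIP1, which links HSP70 to HSP90, by -0.12 and 0.62, and HSP90AA1, the inducible HSP90, by -0.03 and 0.42. HSPB1, the small heat shock protein HSP27, fell by 0.47 in Huh1 and rose by 0.42 in Huh7, the rise being 0.24 and not called with slide as a block (limma adjusted p = 0.175). For HSF1, the factor itself, the rise was 0.34 in Huh1 and 0.50 in Huh7, and the difference was not called (limma adjusted p = 0.0758), though it was with slide as a block (limma adjusted p = 0.0174).

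The sequences before the start sites of HSPA8 and CHORDC1 are shown because these genes rose in Huh7 with no called change in Huh1, and both hold a heat shock element, the binding sequence of HSF1. They are the 250 bases before the RefSeq start in GRCh38.p14, at chr11:123062137-123062386 (- strand) for HSPA8 and chr11:90223050-90223299 (- strand) for CHORDC1. Capitals mark matches to GAANNTTCNNGAA or TTCNNGAANNTTC on either strand, and the 3 matches of CHORDC1 overlap.
HSPA8: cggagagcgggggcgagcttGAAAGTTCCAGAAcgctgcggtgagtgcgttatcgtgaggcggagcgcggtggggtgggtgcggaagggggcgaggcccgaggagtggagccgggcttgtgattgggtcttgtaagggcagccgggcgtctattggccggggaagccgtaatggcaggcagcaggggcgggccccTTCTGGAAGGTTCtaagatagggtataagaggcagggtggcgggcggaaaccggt
CHORDC1: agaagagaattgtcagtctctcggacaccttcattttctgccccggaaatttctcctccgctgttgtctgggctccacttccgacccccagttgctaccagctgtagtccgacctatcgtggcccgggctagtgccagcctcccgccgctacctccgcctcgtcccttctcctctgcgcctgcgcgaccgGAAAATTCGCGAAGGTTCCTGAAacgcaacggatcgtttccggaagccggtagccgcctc
These letters were found before 3 of 20 heat shock members with a RefSeq promoter (15%), the third being HSPA6, and before 120 of 27305 genes overall (0.439%). A match is a description of the letters, and no binding was measured.

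The proteasome list, which holds subunits, assembly factors and the transcription factor NFE2L1, moved the same way with smaller steps. The proteasome disposes of unfolded proteins. The change was called higher in Huh7 for 24 of 40 and lower for 1, with medians of 0.10 in Huh1 and 0.38 in Huh7, though the sign of the median difference turned with spike-in scaling. The lower member was NFE2L1, which drives proteasome genes and rose by 0.59 in Huh1 and fell by 0.30 in Huh7. PSMD2, a subunit of the regulatory particle, rose by 0.26 in Huh1 and by 0.77 in Huh7, whereas for PSMC4, an ATPase of that particle, the rises of 0.75 and 0.89 were not called different (limma adjusted p = 0.152).

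The changes of ATF4 targets differed between the lines, often in direction. The factor drives amino acid supply and stress genes, and 18 of 27 members rose and 4 fell in Huh1, against 6 that rose and 14 that fell in Huh7. The change was lower in Huh7 for 19 and higher for 2, with medians of 0.65 in Huh1 and -0.22 in Huh7, and 7 members were opposed. For ATF4 itself the change in Huh1 was 0.19 and not called (limma adjusted p = 0.0751), and in Huh7 it fell by 0.22. With slide as a block neither that fall (limma adjusted p = 0.28) nor the difference (limma adjusted p = 0.112) was called.

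FGF21, a liver hormone of fasting and stress, was not well above background on any Huh1 control array and was at -2.48, -2.42 and -2.39 with DSF, at least 17.0-fold higher. In Huh7 it went from -4.52, -4.24 and -4.14 to -4.79, -5.23 and -5.32, a fall of 0.81 ± 0.14 (limma adjusted p of the difference 4.2e-08). DDIT4, an inhibitor of mTORC1, was at 1.99, 2.02 and 1.94 in Huh1 control and at 3.05, 3.04 and 3.10 with DSF. In Huh7 it went from 4.77, 4.82 and 4.79 to 3.22, 3.03 and 3.04, so that after DSF both lines lay between 3.03 and 3.22.

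STC2, a secreted glycoprotein, went from -4.15, -3.87 and -3.94 to -1.95, -2.0 and -2.03 in Huh1 and from -0.15, -0.19 and -0.16 to -1.11, -0.83 and -0.80 in Huh7. CHAC1, which degrades glutathione, rose by 1.02 ± 0.17 in Huh1 and fell by 1.59 ± 0.17 in Huh7. The serine synthesis enzyme PHGDH rose by 0.46 in Huh1, not called with slide as a block (limma adjusted p = 0.0667), and fell by 0.60 in Huh7. VEGFA, the angiogenic growth factor, rose by 0.65 and fell by 0.88. CTH, the last enzyme of transsulfuration, and MTHFD2, a mitochondrial folate enzyme, rose by 2.17 and 1.25 in Huh1 with changes of -0.20 and 0.16 in Huh7. Not every member divided the lines by sign. DDIT3, the death-linked factor CHOP, rose in both, by 2.69 in Huh1 and by 0.48 in Huh7.

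The bases before FGF21 hold the sequence that ATF4 binds together with C/EBP factors, TGATGNAAT, and are shown because this gene had the largest difference in its list. They lie at chr19:48755274-48755523 (+ strand, GRCh38.p14, RefSeq), and the capitals mark the match, which is on the opposite strand and begins 55 bases before the start.
FGF21: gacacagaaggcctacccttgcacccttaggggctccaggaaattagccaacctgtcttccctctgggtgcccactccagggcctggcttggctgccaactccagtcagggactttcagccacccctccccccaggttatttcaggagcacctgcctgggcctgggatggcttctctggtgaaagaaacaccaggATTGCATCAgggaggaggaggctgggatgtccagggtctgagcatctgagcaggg
Of 21 list members with a RefSeq promoter, FGF21 alone held these letters in this window, and 0.916% of all promoters did.

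NRF2 targets and glutathione genes mostly fell in Huh1 and mostly rose in Huh7. In Huh1, 1 of 28 members rose and 19 fell, and in Huh7 18 rose and 3 fell, with medians of -0.29 and 0.27. The change was called higher in Huh7 for 21 and lower for 2, and 11 members were opposed. GCLC, the catalytic subunit of glutathione synthesis, went from 4.85, 4.70 and 4.69 to 3.98, 3.99 and 3.97 in Huh1 and from 2.03, 2.04 and 2.08 to 3.09, 2.94 and 2.85 in Huh7. The arrays of the lines drew together from both sides. The export pump ABCC2 fell by 0.55 in Huh1 and rose by 0.69 in Huh7.

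Several detoxification genes, each higher in Huh1 control than in Huh7 control, rose in Huh7 with no rise called in Huh1. AKR1C1, an aldo-keto reductase, was between 8.22 and 8.30 in Huh1 control and fell by 0.21 ± 0.04, a fall not called with spike-in scaling (limma adjusted p = 0.711), whereas in Huh7 it went from 4.45, 4.40 and 4.48 to 5.80, 5.76 and 5.77. Its close relative AKR1C3, whose probe may share transcripts with it, changed by -0.30 ± 0.14 and 1.79 ± 0.14. The first Huh7 DSF array was at 4.0 for this gene and the others at 4.60 and 4.57, and with slide as a block the changes were -0.29, then called (limma adjusted p = 0.00355), and 1.40. AKR1B10 changed by -0.17 and 1.25. HMOX1, the heme-degrading enzyme, was at 6.26 ± 0.05 (SD, n = 3) in Huh1 control and changed by 0.04, and was at 2.93 ± 0.03 in Huh7 control and rose by 1.51. TXNRD1, thioredoxin reductase, changed by -0.10 and 0.82. An exception was SLC7A11, the cystine carrier, which fell in both lines and more in Huh7 (0.18 and 0.58). Letters of the antioxidant response element, TGACNNNGC on either strand, stood before 5 of 19 members (26.3%). They stood in 11.0% of all 27305 promoters and 12.1% of those of tested genes.

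Genes of hypoxia and glycolysis divided among themselves. Of 32 members, 13 had a lower and 7 a higher change in Huh7, 8 were opposed, and the median change was -0.15 in Huh1 against -0.52 in Huh7, though the sign of the list's median difference turned with median scaling. ANKRD37, an ankyrin protein induced by HIF1, went from -2.22, -2.78 and -2.56 to -1.20, -1.27 and -1.21 in Huh1 and from 0.77, 0.71 and 0.75 to -1.75, -1.58 and -1.68 in Huh7. Huh7 passed from above Huh1 to below it. BNIP3L, a mitophagy receptor, changed by 0.78 and -0.80, P4HA1, a collagen hydroxylase, by 0.22 and -1.23, and PDK1, which restrains pyruvate entry to mitochondria, by 0.26 and -0.73. PFKFB4, which sets the rate of glycolysis, fell by 0.24 in Huh1 and by 2.19 in Huh7. PFKP, the platelet isoform of phosphofructokinase, went the other way, rising by 0.44 and by 2.19.

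The bases before ENO2 and ALDOC, an opposed gene and a gene whose large fall was in Huh7, are shown with ACGTG, the core of the HIF1 binding sequence on either strand, in capitals. They lie at chr12:6914330-6914579 (+ strand) and chr17:28576896-28577145 (- strand) in GRCh38.p14 (RefSeq).
ENO2: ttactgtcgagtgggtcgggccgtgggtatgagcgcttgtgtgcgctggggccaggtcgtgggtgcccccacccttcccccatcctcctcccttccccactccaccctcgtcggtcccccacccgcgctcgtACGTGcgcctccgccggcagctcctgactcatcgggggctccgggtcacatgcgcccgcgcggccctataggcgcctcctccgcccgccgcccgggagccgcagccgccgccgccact
ALDOC: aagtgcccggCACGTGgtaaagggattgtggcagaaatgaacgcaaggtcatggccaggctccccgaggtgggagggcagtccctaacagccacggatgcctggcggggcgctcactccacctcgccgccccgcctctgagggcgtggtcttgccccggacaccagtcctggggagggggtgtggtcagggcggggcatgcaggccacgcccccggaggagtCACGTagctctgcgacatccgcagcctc
This core stood before 12 of 27 list members with a RefSeq promoter (44.4%). It stood before 18.7% of all 27305 promoters and 22.4% of those of tested genes. For ALDOC, 2 of the 3 matches overlap.

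The change of interferon-stimulated genes was mostly lower in Huh7 than in Huh1. Of 24 members, 11 rose and 5 fell in Huh1, and 2 rose and 16 fell in Huh7. The difference was called for 15 with a lower and 3 with a higher change in Huh7, with medians of 0.12 in Huh1 (below 0 with median scaling) and -0.28 in Huh7, and 7 were opposed. BST2, the tetherin of enveloped viruses, was not well above background in Huh1 control, was at -4.57, -4.60 and -4.41 with DSF (at least 3.97-fold higher) and went from -4.32, -4.30 and -4.37 to -4.86, -5.01 and -5.01 in Huh7. HERC5, the ligase for ISG15, was at least 4.11-fold higher in Huh1 and changed by 0.19 in Huh7. IRF9, part of the interferon-activated complex, rose by 1.36 in Huh1 and fell by 0.37 in Huh7, a fall not called with slide as a block (limma adjusted p = 0.106). IRF7 fell by 1.93 ± 0.12 in Huh7 and changed by 0.32 in Huh1, which was called (limma adjusted p = 0.0425) but not with slide as a block (limma adjusted p = 0.0656). IFIT3 moved the other way, rising by 0.32 in Huh1 and by 1.51 in Huh7, and IFIT1 fell in both lines by 1.68 and 0.99.

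NF-kappaB targets and chemokines mostly rose in both lines, 16 of 24 in Huh1 and 17 in Huh7 with 1 that fell in each, with no opposed member and with medians of 1.16 in Huh1 and 0.58 in Huh7. The change was lower in Huh7 for 14 of 24 members and higher for 6. CCL20, a chemokine for CCR6-bearing lymphocytes, went from 0.64, 1.46 and 1.5 to 3.65, 3.57 and 3.61 in Huh1 and stayed between 6.01 and 6.18 in Huh7. Its difference of -2.46 was -2.17 without the first Huh1 control array. The deubiquitinase TNFAIP3 rose by 2.42 and 0.30, the second not called with slide as a block (limma adjusted p = 0.227), and BIRC3, an inhibitor of apoptosis, by 2.55 and 1.00. CCL2, the monocyte chemokine, was not well above background on any array of 3 groups and was at -2.71, -2.99 and -2.85 in Huh7 with DSF, at least 15.4-fold higher than in Huh7 control. IL6 rose by 2.36 ± 0.20 in Huh7 and was not well above background in Huh1. CXCL8 rose by 2.90 and 3.26, and those changes were not called different (limma adjusted p = 0.636).

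Genes of sterol and fatty acid synthesis mostly fell. Of 33 members, 22 fell and 4 rose in Huh1, and 32 fell and 0 rose in Huh7. The change was lower in Huh7 for 24 and higher for 3, with medians of -0.42 in Huh1 and -0.81 in Huh7. INSIG1, the sterol sensor that retains SREBP, went from 0.73, 0.73 and 0.77 to 1.24, 1.18 and 1.19 in Huh1 and from 3.19, 3.15 and 3.20 to 2.10, 2.0 and 1.89 in Huh7. MVD, of the mevalonate pathway, rose by 0.26 ± 0.07 in Huh1, not called with median scaling (limma adjusted p = 0.518), and fell by 1.11 ± 0.07 in Huh7. These were 2 of the 3 opposed members. ACSS2, which makes acetyl-CoA from acetate, fell by 0.42 and by 2.26. The acetyl-CoA carboxylase ACACA fell by more in Huh1, by 0.80 against 0.33.

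Some genes that regulate death gave changes limited to Huh1. BBC3 and PMAIP1, the BH3-only proteins PUMA and NOXA, are triggers of the mitochondrial death pathway. BBC3 went from 0.52, 0.70 and 0.60 to 2.32, 2.36 and 2.45 in Huh1 and lay between 2.88 and 3.05 on the Huh7 arrays. PMAIP1 rose by 2.07 ± 0.11 in Huh1, and its change in Huh7 was 0.19 (limma adjusted p = 0.172), but 0.45 and called with slide as a block (limma adjusted p = 0.0184). The TRAIL receptors TNFRSF10B and TNFRSF10D rose by 1.05 and 1.55 in Huh1, with changes of -0.03 and 0.04 in Huh7. These 4 genes were the members of the BCL2 family and death receptor list limited to Huh1, PMAIP1 only without that block, and in each the Huh1 control level was the lower. Of the list's 27 members, 12 had a lower and 7 a higher change in Huh7. BAX, the pore-forming effector, fell by 0.40 in Huh1 and rose by 0.30 in Huh7.

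The CDK4 inhibitor CDKN2D went from 0.56, 0.60 and 0.60 to 2.14, 2.04 and 2.06 in Huh1 and from 1.56, 1.43 and 1.58 to 1.23, 1.1 and 1.01 in Huh7. MYC fell by 0.70 in Huh1 and rose by 0.31 in Huh7, and CDC25A, a phosphatase that activates CDK2, fell by 0.34 and rose by 0.58. Among 25 genes of the G1/S transition the change was higher in Huh7 for 14 and lower for 6. Among 24 mitotic genes, 18 fell in Huh1 and 17 in Huh7, and the difference was called for 11, which at 45.8% was below the 53.1% over all genes. For p53 targets it was called lower in Huh7 for 12 and higher for 6 of 25. TP53I3, a p53-induced oxidoreductase, changed by -0.11 in Huh1 and rose by 1.09 in Huh7.

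Genes of secreted liver proteins mostly fell in both lines, with differences in single members. Of 38 secreted liver proteins, 24 fell in Huh1 and 29 in Huh7, against 29.7% and 27.1% over all genes. SERPINA3, an acute-phase antiprotease, was at -1.70, -1.80 and -1.79 in Huh1 control and -0.82, -0.95 and -0.87 with DSF, and went from 4.70, 4.70 and 4.73 to 2.33, 2.15 and 2.17 in Huh7, and both other probes of the gene changed in these directions. TTR, transthyretin, fell by 1.71 in Huh1 with a change of -0.11 in Huh7, and complement C3 fell by 1.37 in Huh7 with -0.22 in Huh1. HAMP, the iron hormone hepcidin, went from 6.90, 6.77 and 6.68 to 4.94, 4.90 and 5.01 in Huh1 and from -2.21, -2.51 and -2.31 to -2.08, -1.53 and -1.41 in Huh7. The first Huh7 DSF array lay close to its controls, and with slide as a block the change in Huh7 was 0.27 and not called (limma adjusted p = 0.146).

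Some members tied to BMP and Wnt signaling fell in Huh1 and rose in Huh7, while others changed mainly in a single line or went the other way. BMP4, a ligand of that pathway, went from -1.17, -1.17 and -1.38 to -1.95, -1.92 and -1.90 in Huh1 and from -0.11, -0.09 and -0.13 to 0.71, 0.70 and 0.67 in Huh7. ID1 and ID3, which BMP receptors induce, fell by 0.56 and 0.88 in Huh1 with changes of -0.02 and -0.01 in Huh7, while TGFB1 rose by 0.77 in Huh1 and fell by 0.22 in Huh7, a fall not called with slide as a block (limma adjusted p = 0.0758). Over 24 TGF-beta and BMP genes the change was higher in Huh7 for 13 and lower for 5. Of 18 Wnt targets and feedback genes it was higher for 11 and lower for 4. The Wnt-induced factor SP5 fell by 0.59 and rose by 0.55, and RNF43, which removes Wnt receptors, fell by 0.76 in Huh1 with a change of 0.11 in Huh7. LGR5, a stem cell receptor for R-spondin, rose by 1.56 ± 0.06 in Huh7 and was not well above background in Huh1. DKK1, a Wnt inhibitor, was at -4.96 on the first Huh1 control array and at -2.62 and -2.61 on the others. Its difference of -2.31 became -1.53 without that array and was then called more firmly (limma adjusted p = 6.47e-07), while with slide as a block it was -2.24 and not called (limma adjusted p = 0.129).

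Of 22 hepatocyte transcription factors, 14 fell in Huh1 and 10 in Huh7, the change was higher in Huh7 for 10 and lower for 3, and the sign of the list's median difference turned with spike-in scaling. CEBPA, which holds hepatocytes in their mature state, fell by 1.26 ± 0.05 in Huh1. Its change in Huh7 was -0.12 ± 0.05 (limma adjusted p = 0.0459) and was not called with slide as a block (limma adjusted p = 0.15) or with median scaling (limma adjusted p = 0.139). Progenitor and oncofetal genes showed no common direction, with 7 higher and 6 lower of 21. IGF2, the fetal growth factor, was not well above background in Huh1 control and was at -2.94, -2.97 and -3.19 with DSF, at least 11.2-fold higher, while Huh7 stayed between 7.94 and 8.26. A second IGF2 probe, not well above background in Huh1, did not show this rise. SALL4, an oncofetal transcription factor, rose by 1.90 in Huh1 with a change of -0.01 in Huh7, and the biliary factor SOX9 rose by 1.22 in Huh1 and fell by 0.44 in Huh7, where with slide as a block the change was -0.10 and not called (limma adjusted p = 0.647). SPP1, osteopontin, went the other way, from -0.87, -0.95 and -0.81 to 2.76, 2.56 and 2.51 in Huh7, with 7.15 to 7.49 on the Huh1 arrays. KRT19, a biliary keratin, was at 4.04, 2.39 and 2.29 in Huh1 control and at 4.90, 4.87 and 4.89 with DSF, and its difference of -2.03 was -1.99 and not called with slide as a block (limma adjusted p = 0.0728), and was -2.59 and called without the first control array (limma adjusted p = 7.18e-08).

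Metal-binding and metal transport genes closed the comparison. All 10 tested metallothioneins, the copper and zinc buffers of the cell, rose in Huh7 and 9 rose in Huh1, and the rise was called larger in Huh7 for 6 and smaller for 1, the last being MT1F, at least 2000-fold higher in Huh1 against 6.89 ± 0.07 on the log2 scale in Huh7. Metallothionein transcripts are near-identical, so a probe may read several. SLC30A2, a vesicular zinc transporter, was not well above background in either control and was at least 2.58-fold higher in Huh1 and at least 55.3-fold higher in Huh7. SLC39A14, an importer of zinc and iron, fell by 0.93 ± 0.04 in Huh1 with a change of 0.07 ± 0.04 in Huh7. Among the 37 members of the p38 MAPK cascade the change was higher in Huh7 for 11 and lower for 12, near the shares over all genes.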

How the data were processed

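RNA of EpCAM+ cells was hybridized to one-color Agilent arrays. The authors deposited, per array, spot intensity from Feature Extraction (10.7.1.1 per the file headers), background-subtracted and detrended but not scaled between arrays, and a value table scaled to each array's 75th percentile, used as an alternative. The spot files hold intensity on a linear scale, and the authors' table holds the ratio of each probe to that percentile.

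Here the processed signal was put on the log2 scale, spots flagged as outliers were left out, spots of a probe were averaged, and each array's log2 75th percentile (10.099 to 10.287) was subtracted. No spot was saturated. A probe was tested where any of the 4 groups had all 3 arrays well above background (29191 probes), and 20240 of them had a gene symbol, through RefSeq accessions. The brightest probe by its mean over the 12 arrays stood for each of 15615 genes, of which 3846 had more than 1. Changes and their difference were fitted in limma 3.58.1 (R 4.3.3), with 4 group means and no covariate, and Benjamini-Hochberg adjustment over all probes tested. SEs and 95% intervals are limma's. An exact rank test of 3 arrays against 3 has 0.1 as its smallest p. The number of arrays limits the precision.

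For genes not well above background on any array of a group, folds are given as bounds: the mean of the brighter group against the dim group's mean, for which each array gives the probe's own signal or, if higher, that of its dimmest probe well above background. Such bounds hold for this background correction.

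Genes were named by rank: 6 opposed genes per orientation by the smaller change, 4 limited genes per line and sign, and up to 3 called members per list, of which some are not reported here. The members, lists and rules were chosen with earlier results of these data known. Normexp used the median spot signal, since the mean was not in the files used here. In all 15 alternatives were tried besides leaving out single arrays, and the fit was tested on simulated data. Promoters (RefSeq, GRCh38.p14) were matched by symbol. Python 3.11.15, pandas 2.3.3, numpy 2.4.6 and matplotlib 3.10.9 were used for sequences and figures.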

Additional observations from a re-analysis of the deposited data

Results flagged for a closer look

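The response to DSF differed between Huh7 and Huh1, by a test of the difference itself in limma, for 13378 of 29191 probes. The same test underlies the 309 genes with opposed changes of at least 1.5-fold in each line, the 207 genes with a change limited to Huh1 and the 185 with a change limited to Huh7. All 309 kept their signs with slide as a block, though not all were then still called opposed. In that setting the change in Huh7 rests on the first Huh7 DSF array alone.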

How the results depend on the processing

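Of the counts, these moved by over 1.5 times. With scaling on 7 spike-in probes, 8583 probes were called for the difference and 716 genes were opposed, and 629 of the 1821 opposed genes were kept, but 294 of the 309 with at least 1.5-fold in each line. With 1.5-fold in place of 2-fold in the responding line, 682 genes were limited to Huh1 and 654 to Huh7. The opposed genes of at least 1.5-fold numbered 122 with normexp, where 304 of the 309 kept their signs, and 172 with probes well above background on all 12 arrays. The share of called probes with the larger change in Huh7 was 51.6%, against 67.3% with median scaling and 17.0% with spike-in scaling.

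With single arrays left out, 11881 to 15671 probes were called (highest without Huh7 DSF array 1), 1493 to 2144 genes were opposed, 178 to 231 were limited to Huh1 and 159 to 237 to Huh7. Slide as a fixed block gave 11574 probes and 1623 opposed, 198 and 152 limited genes, of which 1288, 120 and 123 were in their class before.

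The replicate block gave 12578 probes and 1616 opposed, 217 and 180 limited genes. Deviations of same-numbered arrays correlated at -0.091 to 0.123, with 1 of 18 over 0.1, so the numbers were not taken to pair samples.

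Of the smaller values given for genes chosen from the lists, several calls turned on the scaling. With spike-in scaling the difference was not called for HSPA8, STIP1, HSP90AA1, PSMD2, BAX, CDC25A, MYC, ID1, ID3, RNF43, IFIT1 and ACACA, nor either change of SP5 and HSPB1. With median scaling it was not called for ATF4 and SLC7A11, nor the rise in Huh1 for P4HA1, PDK1, PHGDH, PSMD2, IFIT3 and HSF1 or the rise of MYC in Huh7.

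No difference of a gene named by rank reversed. The call was lost for DKK1, NKD2 and KRT19 with slide as a fixed block and without the separate slide, for SLC30A10, ATF5, ADRM1 and PSMG1 with spike-in scaling, for FBP2 with all 18 arrays in the fit, and for FOSB under several settings. With 3 arrays a group, signals near background limit what low genes show.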
